A study of Arabidopsis thaliana with 4 samples.

Results

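The BGLU genes of Arabidopsis thaliana encode beta-glucosidases of the plant glycoside hydrolase family that releases glucose from small glucosides. The genes were taken from the array platform's annotation as every probe set paired with exactly 1 gene whose symbol begins with BGLU and a number, which gave 20 genes, each with 1 probe set, among 13513 probe sets with 1 gene. The RefSeq gene table lists 40 genes with such a symbol, and the other 20 had no probe set that met this rule. BGLU21 and BGLU22, which share a probe set, are given for comparison only. Expression was measured in root tips of seedlings grown for 4 days on MS medium at 23 °C in continuous light, on 2 wild type arrays and 2 arrays for the sol2 mutant, each hybridised with cRNA carrying biotin. The sol2 plants carry a mutation in the gene SOL2, known too as CORYNE, which encodes a receptor-like kinase through which cells perceive CLE peptides. The sol2 allele, the accession of the wild type and the number of seedlings in a sample are not given in the sources used here, and the labels do not tell whether the replicates are separate cultures. The p-values therefore cover the spread between these arrays alone, which may be technical.

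Plants store many defence and signalling compounds as inactive glucosides, and BGLU enzymes remove the sugar when the compound is needed. Known substrates in Arabidopsis include flavonol glycosides, the coumarin scopolin, monolignol glucosides, glucosinolates and the glucose ester of abscisic acid. In roots the best-known members are PYK10 (also named BGLU23), BGLU21 and BGLU22, which accumulate in ER bodies, spindle-shaped compartments of the endoplasmic reticulum, and meet their substrates when cells are damaged.

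The values were deposited signal intensities, 1 per probe set and array. Array medians lay between 142.6 and 160.5. The replicate arrays differed by a median of 0.29 (wild type) and 0.18 (sol2) on the log2 scale, and wild type replicate 2 was nearer to the sol2 arrays (0.22 and 0.19) than to wild type replicate 1. The 3' to 5' signal ratio of an actin control, a measure of RNA integrity, was 8.45 and 24.5 on the wild type arrays of replicates 1 and 2 and 11.6 and 36.9 on the sol2 arrays. A second actin pair gave 1.72 to 2.81, ubiquitin 2.29 to 3.87 and GAPDH 0.971 to 1.07 over the 4 arrays. Of 13 root tip markers, 3 had a probe set that the annotation paired with exactly 1 gene, all above the filter described next. Listed genes without such a probe set were not examined, here and below, whether or not the array measures them. The root cap gene AT1G65570 had 286 and 516 in wild type, against 576 and 631 in sol2 (adjusted p = 0.599, limma), and the meristem regulator JKD had 143 to 184. The quiescent centre gene AGL42 had 16.2 and 26.7 in wild type, against 203 and 302 in sol2, a rise that passed the test (adjusted p = 0.00486, limma). Both wild type signals of AGL42 lay under 34.1, the highest signal of the bacterial controls described below. AGL42 passed the filter through its sol2 arrays. Of 8 photosynthesis markers of the shoot 2 had a probe set paired with 1 gene and neither passed. RCA had 297 and 251 in wild type, against 184 and 148 in sol2. PSBW overlapped with 68.9 and 131.9 in wild type, against 71.2 and 94.3 in sol2. Of 7 root hair markers 4 were tested and none passed, their summed signal being 12260 and 8485 in wild type, against 9925 and 8290 in sol2. The sol2 arrays were wholly lower for AT4G26010 (log2 -0.89, adjusted p = 0.238, limma) and EXPA18 (log2 -0.37). They were wholly higher for AT1G30870 (log2 0.45) and overlapped with wild type for EXPA7 (log2 -0.14). Of 9 xylem and phloem markers 2 were tested. The phloem gene SWEET11 fell, with 505 and 331 in wild type, against 63.8 and 29.9 in sol2 (adjusted p = 0.00782, limma). Its signal on sol2 replicate 2 lay under the 34.1 of the bacterial controls. The xylem gene GUT2 overlapped, with 448 and 317 in wild type, against 412 and 390 in sol2 (log2 0.08, adjusted p = 0.981, limma). The part of these cell types in the BGLU values was not tested. In root tips taken whole, fewer cells of a type and less RNA per cell cannot be told apart.

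Most of the 20 BGLU genes that met the rule had low signal in the root tip. The rule left out PYK10 and the probe set shared by BGLU21 and BGLU22. Their mean signals, 16512 and 12707, were above those of all 20. Of the 20 genes, 6 lay above the filter on low values and were tested: BGLU15, BGLU16, BGLU25, BGLU28, BGLU42 and BGLU46. The filter kept probe sets whose mean of log2(signal + 18.4) was at or above the 40th percentile, which corresponds to a signal of 80.1. Among all probe sets with 1 gene 54.8% passed it, against 30% of the BGLU genes. On 27 control probe sets for bacterial transcripts the highest signal was 34.1. All 4 arrays lay at or under that signal for 7 of the 14 BGLU genes below the filter, 1 to 3 arrays did for 6, and none did for BGLU40. Whether the remaining signal of these 14 genes comes from their own transcripts was not tested.

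**Figure D1:**
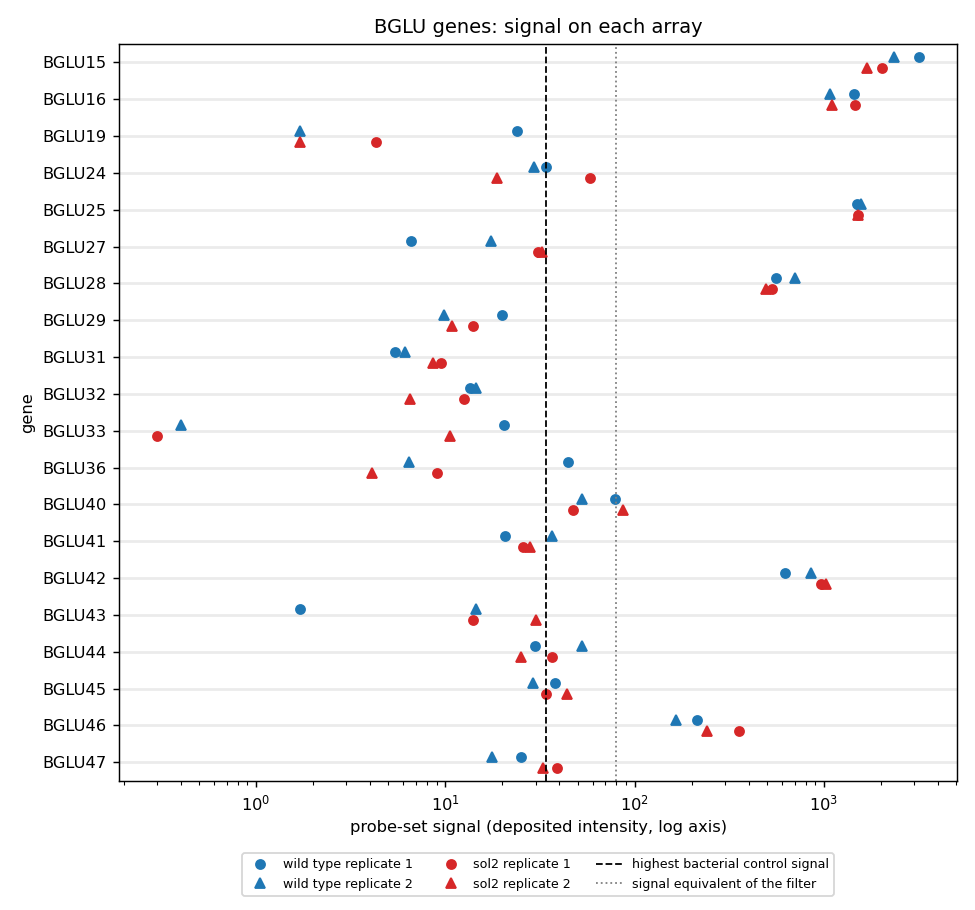
Signal of the 20 BGLU genes on each array (log axis; circles are replicate 1, triangles replicate 2, blue wild type, red sol2). The dashed line marks the highest bacterial control signal (34.1) and the dotted line the signal equivalent of the filter (80.1); 6 genes lie to the right of both on all 4 arrays.

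No BGLU gene passed the test between sol2 and wild type, with 0 of 6 called higher and 0 called lower at an adjusted p under 0.05 by limma. Of all 13648 tested probe sets 1.25% were called, 0.945% higher and 0.3% lower. At an unadjusted p under 0.05 (limma) there was 1 of the 6, BGLU15, against 8.9% of all tested probe sets. The 2 sol2 arrays lay wholly above the 2 wild type arrays for BGLU42 and BGLU46 and wholly below for BGLU15 and BGLU28, and they overlapped for BGLU16 and BGLU25. Groups that do not overlap were found for 36.2% of all tested probe sets, 17.5% with sol2 higher and 18.6% with sol2 lower, and the count of 4 rests on 6 genes only. None of the 6 showed a difference of 2-fold or more (in signal plus 18.4) across all 4 combinations of a mutant with a control array, as 1.31% of all tested probe sets did. The median log2 difference (sol2 minus wild type) of the 6 was 0.01 and that of all tested probe sets 0.00. The median size of the difference was 0.36 for the BGLU genes and 0.17 for all. Between the 2 wild type arrays alone the median size was 0.37 for the 6 genes and 0.29 for all. Between the 2 sol2 arrays it was 0.18 for both. The genotype difference of the 6 genes was thus no larger than the distance between their wild type arrays.

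**Figure D2:**
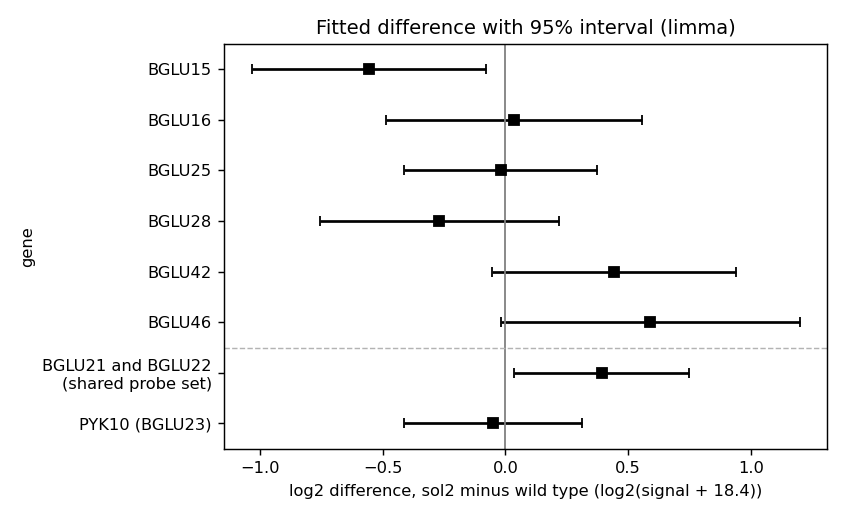
Fitted log2 difference between sol2 and wild type (squares) with its 95% interval (bars) from limma for the 6 tested BGLU genes, and, under the dashed line, for the probe set shared by BGLU21 and BGLU22 and for PYK10. The interval of BGLU15 lies below 0 (-1.03 to -0.08) and that of the shared probe set above 0 (0.04 to 0.75), before adjustment; those of the other 6 contain 0.

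BGLU15, an enzyme that hydrolyses flavonol bisglycosides during their breakdown, had signals of 3193 and 2340 in wild type, against 2031 and 1690 in sol2. Both sol2 arrays were below both wild type arrays, but the gap between the groups was smaller than the distance between the wild type arrays. Its log2 difference was -0.56 ± 0.21 (SE, n = 2 arrays per genotype, 95% interval -1.03 to -0.08), with an unadjusted p of 0.0277 and an adjusted p of 0.420 by limma. Without wild type replicate 2 it was -0.78 with an adjusted p of 0.0129 (limma, the lone wild type array being assumed to vary like the sol2 arrays), and without wild type replicate 1 it was -0.33 with an adjusted p of 0.589.

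Of 10 genes of flavonol and anthocyanin synthesis and glycosylation, the source of BGLU15's substrates, 6 had a named probe set, 2 were tested and none passed. The flavonol 3-O-glucosyltransferase UGT78D2 had signals of 1689 and 1571 in wild type, against 1032 and 1239 in sol2 (log2 -0.52, adjusted p = 0.391, limma). The flavonol 7-O-rhamnosyltransferase AT1G06000 had 2432 and 1918 in wild type, against 2330 and 2321 in sol2, so its groups overlapped. The median log2 difference of these 2 genes was -0.21.

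BGLU42 releases scopoletin from scopolin and is known for its part in iron-deficient roots and in systemic resistance set off by root bacteria. Its signals were 623 and 851 in wild type, against 968 and 1025 in sol2. The sol2 arrays were both higher and close together, while the wild type arrays stood further apart. The log2 difference was 0.44 ± 0.22 (SE, 95% interval -0.06 to 0.94, adjusted p = 0.650, limma). Without wild type replicate 2 it was 0.66 with an adjusted p of 0.0482 (limma, same assumption), and without wild type replicate 1 it was 0.22 with an adjusted p of 0.810.

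Of 9 listed coumarin genes 4 had a probe set paired with 1 gene. Of these 3 were tested and none passed, with a median log2 difference of 0.45. The scopoletin-forming hydroxylase AT3G13610 (F6'H1) had signals of 5109 and 2638 in wild type, against 5923 and 4894 in sol2. Its groups overlapped, wild type replicate 1 being above sol2 replicate 2 (log2 0.55, adjusted p = 0.705, limma). The coumarin synthase AT1G28680 (COSY) had 2414 and 1880 in wild type, against 3028 and 2829 in sol2, without overlap (log2 0.45, adjusted p = 0.50 and unadjusted p = 0.0384, limma). AT1G55290 (F6'H2), a close relative of F6'H1, lay the other way, with 285 and 190 in wild type, against 184 and 157 in sol2 (log2 -0.41, adjusted p = 0.815, limma).

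BGLU45, BGLU46 and BGLU47 form the group whose first 2 members hydrolyse monolignol glucosides such as coniferin, the storage forms of lignin precursors. BGLU46 had signals of 214 and 167 in wild type, against 355 and 243 in sol2. Its sol2 arrays were both higher, by a wide margin for replicate 1 and a narrower one for replicate 2. The log2 difference was 0.59 ± 0.26 (SE, 95% interval from -0.02 to 1.2, adjusted p = 0.580, limma), which was the largest size among the 6 tested genes. It ranged from 0.33 without sol2 replicate 1 to 0.85 without sol2 replicate 2, and no array left out brought it past the threshold. BGLU45, which lies next to BGLU46 in the gene order, was below the filter with 37.9 and 29.1 in wild type, against 34.2 and 43.9 in sol2, and its groups overlapped. BGLU47 was also below the filter, with 25.0 and 17.6 in wild type, against 38.8 and 32.9 in sol2. Its sol2 arrays were both higher, yet 3 of its 4 signals were within the range of the bacterial controls. Whether those signals come from its own transcripts was not tested.

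Of 12 listed glucosyltransferases and lignin precursor genes on the other side of this reaction, 4 had a probe set paired with 1 gene. All 4 were tested and none passed, with a median log2 difference of -0.23. UGT72B1 (named GT72B1 in the platform annotation) had 2382 and 1217 in wild type, against 2649 and 2436 in sol2 (log2 0.57, adjusted p = 0.694, limma). UGT72E2, which glucosylates coniferyl and sinapyl alcohol, had 2871 and 2087 in wild type, against 2181 and 1662 in sol2 (log2 -0.36, adjusted p = 0.792, limma). For UGT72B1 the sol2 arrays lay above both wild type arrays, whereas those of UGT72E2 overlapped with them.

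BGLU28 takes part in glucosinolate breakdown when sulfur is scarce. Its signals were 555 and 701 in wild type, against 535 and 495 in sol2. The sol2 arrays were both lower, the nearest pair lying only 0.05 apart on the log2 scale. The log2 difference was -0.27 ± 0.21 (SE, 95% interval -0.76 to 0.22, adjusted p = 0.884, limma). It moved to -0.43 when wild type replicate 1 was left out and to -0.11 when wild type replicate 2 was, with no call in either fit. Of 11 sulfur starvation genes 2 had a probe set paired with 1 gene and were tested, and neither passed. AT1G04770 (SDI2), a repressor of glucosinolate synthesis in low sulfur, had 552 and 550 in wild type, against 391 and 416 in sol2 (log2 -0.43, adjusted p = 0.599, limma). The methionine gamma-lyase MGL had 193 and 244 in wild type, against 189 and 293 in sol2, with overlapping groups (log2 0.11, adjusted p = 0.976, limma). The median of these 2 genes was -0.16.

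BGLU25 belongs to the same branch of the family as PYK10. It gave nearly the same signal on every array, 1494 and 1574 in wild type, against 1511 and 1513 in sol2. Its log2 difference was -0.02 ± 0.17 (SE, adjusted p = 0.991, limma), with a 95% interval from -0.41 to 0.37. BGLU19 and BGLU24 of the same branch were below the filter. BGLU19 had 23.8 and 1.7 in wild type, against 4.3 and 1.7 in sol2, all within the control range. BGLU24 had 34.0 and 29.4 in wild type, against 58.1 and 18.7 in sol2, so that its sol2 arrays lay on both sides of the wild type arrays.

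The main ER body glucosidases of roots fell outside the selection by symbol and are given for comparison. PYK10 had signals of 18966 and 14745 in wild type, against 17370 and 14967 in sol2, with overlapping groups (log2 -0.05, 95% interval -0.41 to 0.31, adjusted p = 0.983, limma). A probe set shared by BGLU21 and BGLU22, whose signals therefore cannot be separated, had 9668 and 12385 in wild type, against 13708 and 15069 in sol2. Both sol2 arrays were higher there, with a log2 difference of 0.39 ± 0.15 (SE, adjusted p = 0.475 and unadjusted p = 0.0350, limma). ATA27 (BGLU20) was within the control range on all 4 arrays.

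Of 18 genes for ER bodies and the PYK10 complex, 7 had a named probe set, 5 were tested and none passed, with a median log2 difference of 0.35. NAI1, the transcription factor needed for ER body formation and PYK10 expression, had 911 and 539 in wild type, against 802 and 557 in sol2, with overlapping groups (adjusted p = 0.988, limma). NAI2, a structural protein of ER bodies, had 5523 and 6122 in wild type, against 7340 and 6385 in sol2 (log2 0.24, adjusted p = 0.815, limma). Of 4 jacalin-type lectins, 3 lay wholly higher on the sol2 arrays, as 17.5% of all tested probe sets did, and none passed the test. JAL22 had 582 and 288 in wild type, against 838 and 1056 in sol2. Its log2 difference was 1.16 (95% interval 0.42 to 1.90, adjusted p = 0.208 and unadjusted p = 0.00707, limma). JAL33 had 2082 and 1226 in wild type, against 2568 and 2770 in sol2 (log2 0.73, adjusted p = 0.360, limma). JAL34 had 12010 and 9511 in wild type, against 12935 and 14433 in sol2 (log2 0.35, adjusted p = 0.563, limma). The remaining lectin, JAL23, lay below the filter and overlapped, with 21.8 and 10.8 in wild type, against 8.1 and 20.7 in sol2.

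**Figure D3:**
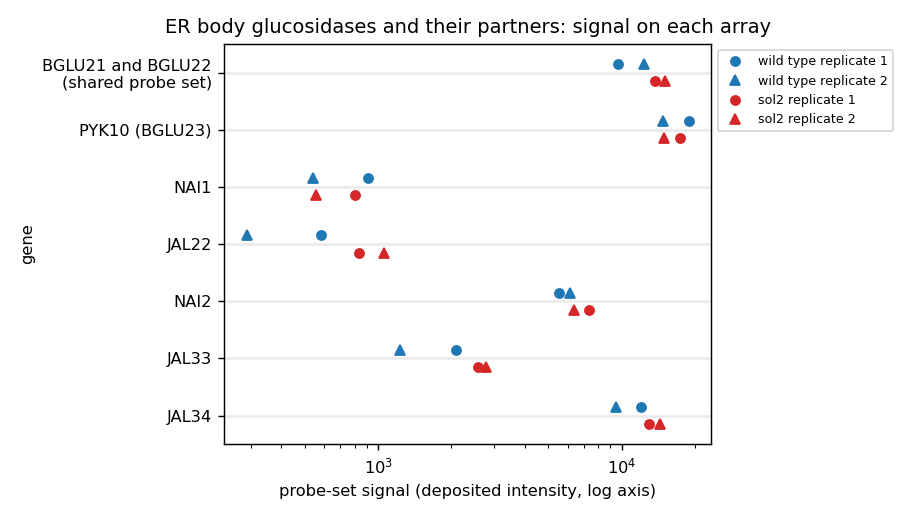
Signal on each array (log axis) of the probe set shared by BGLU21 and BGLU22, of PYK10, and of the 5 tested genes for ER bodies and the PYK10 complex; colours and shapes as in the plot of all BGLU genes. Both red symbols lie to the right of both blue ones for the shared probe set, NAI2, JAL22, JAL33 and JAL34. The genotypes overlap for PYK10 and NAI1. Of all tested probe sets 17.5% were wholly higher in sol2, and none of those shown passed the test.

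BGLU33, which encodes a vacuolar enzyme that frees abscisic acid from its glucose ester, was within the control range on all 4 arrays, with 20.4 and 0.4 in wild type, against 0.3 and 10.6 in sol2. These values have no order between the genotypes. Of 10 genes of abscisic acid metabolism 3 had a named probe set and 2 were tested, neither passing. UGT71C5, which makes the glucose ester, had 329 and 302 in wild type, against 422 and 432 in sol2 (log2 0.42, adjusted p = 0.657, limma). The related glycosyltransferase UGT71C2 had 324 and 295 in wild type, against 201 and 211 in sol2 (log2 -0.55, adjusted p = 0.470 and unadjusted p = 0.0342, limma). Neither gene's arrays overlapped between the genotypes, and 36.2% of all tested probe sets did not overlap either. The 2 genes lay in opposite directions, giving a median log2 difference of -0.07.

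BGLU36, a gene of the myrosinase group (TGG6), had 44.7 on wild type replicate 1 and 4.1 to 9.0 on the other arrays, so its difference between the genotypes rests on that array alone. No other gene of the 14 listed myrosinases and specifier proteins had a probe set that the annotation paired with 1 gene. For indole glucosinolate synthesis 1 of 19 listed genes had such a probe set, and the others were not examined. This was UGT74B1, with 681 and 514 in wild type, against 701 and 693 in sol2 (log2 0.23, adjusted p = 0.915, limma). The only other glycoside hydrolase found by symbol, the beta-galactosidase BGAL16, had 63.9 to 80.4 and was below the filter.

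The arrays of BGLU16 divided by replicate number. Its signals were 1438 in wild type and 1464 in sol2 for replicate 1, and 1078 and 1109 for replicate 2. The log2 difference between the genotypes was 0.03 ± 0.23 (SE, 95% interval -0.49 to 0.56, adjusted p = 0.989, limma), while replicate 2 was lower than replicate 1 by a log2 difference of -0.41 in wild type and -0.39 in sol2. For BGLU25 replicate 2 was higher by log2 differences of only 0.075 in wild type and 0.0024 in sol2, its signals being nearly equal. Replicates 1 and 2 differed in the same direction in both genotypes for 5 of the 6 tested genes, BGLU28 being the exception, and for 65.9% of all tested probe sets. BGLU15 and BGLU46 were also lower on replicate 2 in both genotypes, by log2 differences of -0.45 and -0.33 in wild type, and of -0.26 and -0.52 in the mutant. Both actin 3' to 5' ratios and that of GAPDH were also higher on replicate 2 in each genotype, while that of ubiquitin was higher there in wild type and lower in sol2. The part of RNA integrity in these values was not tested.

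Several of the genes lie side by side in the RefSeq gene order, which allowed neighbours to be set beside each other. BGLU15, BGLU28 and BGLU29 are consecutive on chromosome 2, and the first of these had a log2 difference of -0.56 and the second one of -0.27, with no call for either. BGLU29 was within the control range, with 20 and 9.9 in wild type, against 14.0 and 10.9 in sol2. BGLU27 is the neighbour of BGLU16 on chromosome 3, and had 6.6 and 17.5 in wild type, against 30.8 and 32.6 in sol2. All 4 signals of BGLU27 were within the control range, although both sol2 arrays were higher. When all probe sets were tested, it was the only 1 of the 14 genes with an unadjusted p under 0.05 (0.0308, adjusted p = 0.478, limma).

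BGLU43 and BGLU44, the latter known as a beta-mannosidase, are neighbours on chromosome 3. BGLU43 had 1.7 and 14.5 in wild type, against 14.0 and 30.1 in sol2, and BGLU44 had 29.8 and 52.6 in wild type, against 36.8 and 25.0 in sol2. The genotypes overlapped for both. BGLU31 and BGLU32, neighbours on chromosome 5, stayed within the control range, BGLU31 with 5.4 and 6.1 in wild type, against 9.5 and 8.6 in sol2, and BGLU32 with 13.5 and 14.6 in wild type, against 12.5 and 6.5 in sol2. Their sol2 arrays lay above the wild type arrays for BGLU31 and below them for BGLU32, at signals where the controls also vary.

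BGLU40 had 78.5 and 52.8 in wild type, against 47.4 and 86.4 in sol2, above the control range on all 4 arrays, with 1 sol2 array on each side of the wild type pair. BGLU41 had 20.6 and 36.8 in wild type, against 25.9 and 28.1 in sol2, the sol2 arrays lying between those of wild type. Over the 14 genes below the filter, the sol2 arrays were wholly higher for 3 (BGLU27, BGLU31 and BGLU47), wholly lower for BGLU32 and overlapping for 10. Of all 22746 probe sets 17.1% were wholly higher and 19.2% wholly lower, 36.3% together. With all probe sets tested, the adjusted p of the 14 genes lay between 0.478 and 1 (limma).

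The differences of the 6 tested genes depended on which arrays were used. With 1 array left out in turn, BGLU15 and BGLU28 stayed below 0 and BGLU42 and BGLU46 above 0 in all 4 fits. BGLU16 ranged from -0.17 to 0.24 and BGLU25 from -0.06 to 0.02, each crossing 0. Only the omission of wild type replicate 2 brought calls, those of BGLU15 and BGLU42 given above, and that omission also raised the calls over all tested probe sets to 876 higher and 549 lower, from 129 and 41 with all arrays.

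**Figure D4:**
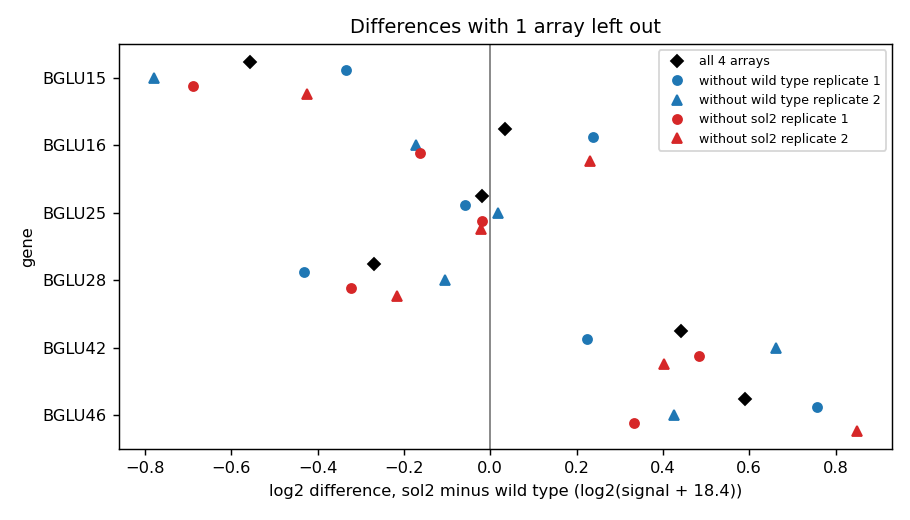
Fitted log2 difference between sol2 and wild type for the 6 tested BGLU genes with all 4 arrays (diamonds) and with 1 array left out (blue: a wild type array, red: a sol2 array; circle: replicate 1, triangle: replicate 2). BGLU15 runs from -0.78 to -0.33 and BGLU42 from 0.22 to 0.66, and BGLU16 lies on both sides of 0.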

How the data were processed

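The deposited table gives linear intensity values, 1 per probe set and array; the submitters' processing notes name GCOS, and its algorithm, scaling target and detection calls are not given in the sources used here. On each array the middle 96% of probe sets averaged 499.75 to 499.77, so no further normalization was applied. The table held 22810 probe sets, of which 64 controls were left out. Genes were named from the platform annotation and the RefSeq gene table (TAIR10.1), which also gave gene order; all 20 members matched by gene identifier. Signals were transformed as log2(signal + 18.4), the 20th percentile of all values, which understates changes of low genes, and 13648 probe sets passed the filter. Genotypes were compared with limma 3.58.1 under R 4.3.3 (lmFit, eBayes with intensity trend, two-sided, genotype as the only term), with Benjamini-Hochberg adjustment over all tested probe sets. The fit was also run on data simulated with independent noise from its own variances. That run does not cover effects shared by arrays of the same replicate number. Tables and figures used Python 3.11.15, numpy 2.4.6, pandas 2.3.3 and matplotlib 3.10.9. The members and gene lists were chosen with earlier results of these data known. Every member is named; those tested are described at length, and of each list up to 6 called genes, otherwise the 2 tested genes of largest difference, and for ER bodies and the PYK10 complex every tested gene and JAL23, and AT1G55290, all beyond the rule and chosen after their values were seen. Lists were described by counts and medians, with no test. The number of arrays limits the precision.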

Additional observations from a re-analysis of the deposited data

How the results depend on the processing

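No tested BGLU gene was called under quantile normalization, equal array medians, other pseudocounts, no filter or the 60th-percentile filter (which left BGLU46 untested), a prior variance without trend or an adjusted p under 0.10. BGLU15 and BGLU28 stayed below 0 and BGLU42 and BGLU46 above 0 under every alternative that tested them, while BGLU16 came to -0.0034 with equal array medians. With the replicate block BGLU15 was called (-0.56, adjusted p = 0.00682, limma), so that 1 BGLU gene was lower; the labels pair no replicates, and replicate differences correlated at 0.441 between the genotypes across probe sets. With 1 array left out in turn, 0 to 1 BGLU genes were higher and 0 to 1 lower; log2 differences ranged from -0.78 to -0.33 for BGLU15, -0.17 to 0.24 for BGLU16, -0.058 to 0.017 for BGLU25 and 0.22 to 0.66 for BGLU42, and the median of the tested genes from -0.092 to 0.10. Over all tested probe sets, counts were 129 higher and 41 lower in the main setting, 60 and 9 without a filter, 68 and 15 with the 60th-percentile filter, 660 and 462 with the replicate block, 199 and 78 at an adjusted p under 0.10, and 107 to 876 and 46 to 549 with an array left out; the cause was not tested. Each gene had 1 probe set, so the choice of another probe set gave no value.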
